A study of Mus musculus with 6 samples.

Results

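Transcription factors that mark the mesenchyme of the tooth germ were followed through RNA-seq libraries of mouse molar epithelium, as a measure of how much mesenchyme the dissected tissue held. The genes are *Msx1*, *Pax9*, *Lhx6*, *Lhx8*, *Barx1*, *Prrx1*, *Prrx2*, *Twist1*, *Twist2* and *Osr2*, listed by name for what they are known to mark, and all 10 were found among the 55487 genes of the deposited table. All 10 transcripts were detected in every library. The 2 groups overlapped for each of the 10, and none of the 9 that could be tested passed the test between *Wnt10a* deleted and control molars. Such calls were few among all 13719 tested genes. Groups without overlap were seen for 9.64% of them, and 0.0146% had an adjusted p below 0.05 from limma. The summed level of the 10 genes was 66.7 ± 21.8 TPM in the control (SD, n = 3) and 75.6 ± 20.9 TPM in the deleted molars (SD, n = 3), so the group means differed by less than the SD within either group. The lowest sums, 48.0 and 54.1 TPM, came from the libraries numbered 3.

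The tissue was dental epithelium of the first mandibular molar of mice at postnatal day 2.5, which the labels also name epithelial cells. The control group held 3 libraries from Wnt10aflox/flox mice, which carry floxed *Wnt10a* alleles and no Cre. The conditional knockout group (cKO) held 3 libraries from K14-Cre;Wnt10aflox/flox mice, with the same floxed alleles and a Cre recombinase under the promoter of keratin 14, a gene of basal epithelial cells, so that mesenchymal cells are not the target of the deletion. Each library was a pool of several molars, 4 according to the design text, while the methods of the study give another number. No source says whether pools came from separate litters, so the p-values measure the spread between these pools. Expression is given in TPM, a transcript abundance that is divided by transcript length and scaled to a fixed library total, which allows levels to be compared between genes. The totals lay between 983952 and 993946 TPM, and between 20185 and 23203 genes were above 0 in a library. TPM keep no sequencing depth, so no counting error can be given. *Wnt10a* itself was at 56.0, 51.2 and 57.9 TPM in replicates 1, 2 and 3 of the control, and the same replicates of the cKO had 22.7, 21.8 and 32.2 TPM. The targeted gene was thus lower in all 3 cKO libraries than in any control library. Its log2 fold change was -1.10, with an unadjusted p of 6.53e-04 and an adjusted p of 0.747 from limma. The deleted gene itself thus did not reach an adjusted p below 0.05.

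The tooth forms from an epithelium that invaginates into mesenchyme derived from the cranial neural crest. The mesenchyme gives rise to the dental papilla, whose outer cells become odontoblasts, and to the dental follicle around the germ. *Msx1* and *Pax9* are needed there for the germ to pass the bud stage, and they maintain the signal *Bmp4*. The LIM homeobox genes *Lhx6* and *Lhx8* act together in the mesenchyme of the molar, *Barx1* marks the molar end of the jaw, and *Osr2* restrains tooth formation beside the molar row. *Prrx1* and *Prrx2*, paired-related homeobox genes, and *Twist1* and *Twist2*, basic helix-loop-helix genes, act widely in the mesenchyme of the head.

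The labelled tissue was checked against epithelial and mesenchymal markers. The keratin gene *Krt14* was at 2494 ± 292 TPM in the control (SD, n = 3) and 2430 ± 280 TPM among cKO libraries (SD, n = 3). The epithelial adhesion genes *Epcam* and *Cdh1* had means of 84.4 and 169 TPM in the control and 111 and 148 TPM in the cKO. Of the 12 dental epithelium markers 11 were at lower and 1, *Epcam*, at higher values in the cKO, with a median log2 fold change of -0.24. Over all tested genes 60.3% were lower in cKO, with a median of -0.07. Of the 12 markers, 0 met the criteria of the study, which are given with the comparison of the groups. The groups did not overlap for 1 of the 12, *Ambn*, at -0.86, a separation seen for 9.64% of all tested genes. These defining markers of epithelium were thus present in both groups. In the same libraries *Col1a1*, the main collagen of dentin and bone, was at 2251 ± 759 TPM in the control (SD, n = 3) and 2309 ± 136 TPM among cKO libraries (SD, n = 3). *Dspp*, which encodes the principal dentin matrix protein of odontoblasts and is also known to be expressed briefly by young ameloblasts, was at 912 ± 498 TPM (SD, n = 3) and 680 ± 220 TPM (SD, n = 3). The mesenchyme transcription factors were thus measured in tissue that was rich in both epithelial and mesenchymal transcripts, and in bulk RNA fewer cells of a type and less RNA per cell cannot be told apart.

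*Barx1* was the most abundant of the 10, with a mean of 27.2 TPM over the 6 libraries, and its range was separate from that of the next gene, *Msx1*, with a mean of 10.7 TPM. *Twist1* followed at 7.42 TPM and was below *Msx1* in all 6 libraries, although their ranges overlapped. *Prrx2*, *Lhx6*, *Osr2* and *Prrx1* had means of 5.42, 5.31, 4.66 and 4.65 TPM and changed places from library to library. *Lhx8* and *Twist2*, at 2.82 and 2.10 TPM, were not separated from each other, with *Lhx8* higher in 4 of 6 libraries. *Pax9* was the lowest, at 0.897 TPM, and was below *Twist2* in all 6 libraries. *Pax9* did not reach the mean of 1 TPM required for testing, so that 9 of the 10 genes were tested. The median gene among the 13719 tested had a mean of 11.5 TPM, so 8 of the 9 tested factors lay below the median level.

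**Figure D1:**
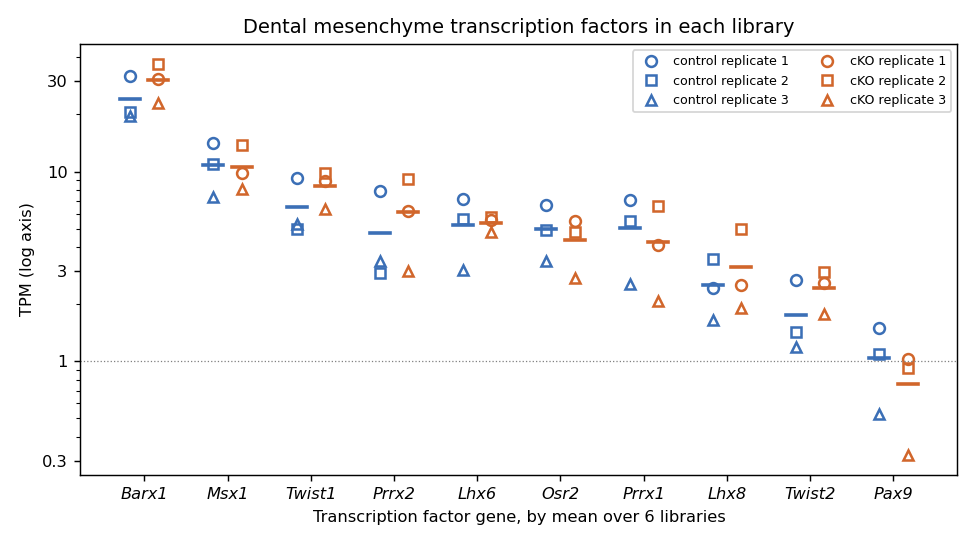
TPM (log axis) of the 10 transcription factors in each library, ordered by their mean, with control libraries in blue, cKO libraries in orange, a marker shape for each replicate number and a bar for the group mean. The dotted line marks 1 TPM. *Barx1* lies between 19.7 and 37.1 TPM and *Pax9* between 0.32 and 1.49 TPM, and the groups overlap for every gene.

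Promoter sequences are shown for *Barx1*, the most abundant of the factors, and for the paralogues *Prrx1* and *Prrx2*, which had similar levels. The sequences are those of RefSeq on GRCm38.p6 and run from 250 bases before to 50 bases after a transcription start, in the direction of the gene. Capitals mark TAATTA, a sequence that many homeodomain proteins can bind, searched on both strands.

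*Barx1*, chr13:48662786-48663085, plus strand: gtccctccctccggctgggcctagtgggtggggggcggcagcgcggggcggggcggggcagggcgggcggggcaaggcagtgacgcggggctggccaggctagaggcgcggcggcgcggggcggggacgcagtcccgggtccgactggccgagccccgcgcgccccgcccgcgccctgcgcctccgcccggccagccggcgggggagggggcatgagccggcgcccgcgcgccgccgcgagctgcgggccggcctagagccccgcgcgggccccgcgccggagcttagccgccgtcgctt

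*Prrx1*, chr1:163313601-163313900, minus strand: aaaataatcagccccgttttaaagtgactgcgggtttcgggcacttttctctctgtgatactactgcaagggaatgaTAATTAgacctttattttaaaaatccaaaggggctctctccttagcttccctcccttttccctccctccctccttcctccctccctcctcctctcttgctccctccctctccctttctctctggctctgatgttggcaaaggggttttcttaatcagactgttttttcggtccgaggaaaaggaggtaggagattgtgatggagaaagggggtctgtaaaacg

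*Prrx2*, chr2:30845117-30845416, plus strand: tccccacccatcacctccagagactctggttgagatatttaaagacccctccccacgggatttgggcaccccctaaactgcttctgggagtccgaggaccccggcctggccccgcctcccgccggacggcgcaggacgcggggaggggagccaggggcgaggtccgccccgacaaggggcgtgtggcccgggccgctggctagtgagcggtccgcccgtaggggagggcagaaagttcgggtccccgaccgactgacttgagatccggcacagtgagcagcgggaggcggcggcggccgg

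The 3 promoters differed in base composition. That of *Barx1* had a GC content of 84.7% with 50 CpG dinucleotides, that of *Prrx2* 70.3% with 28, and that of *Prrx1* 47.7% with 6, against medians of 52.7% and 7 over the 32841 promoters of this length. Among the factors, 9 of 10 had a promoter in the table, *Lhx6* with 3 of the 11 sequences. TAATTA was found in the promoter of *Prrx1* alone among them, and in 5.29% of all promoters. The E-box CANNTG, which helix-loop-helix proteins such as Twist1 bind, was found for *Lhx6*, *Msx1* and *Pax9*, 3 of the 9 genes, and in 72.3% of all promoters. A match or its absence describes the letters in these windows only.

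The comparison between cKO and control asked whether the mesenchyme factors in the dissected tissue changed when *Wnt10a* was deleted in the epithelium. Each gene was tested with limma. Fold changes are on the log2(TPM + 1) scale, where those of low genes come out too small. Among all tested genes 0.0146%, 2 genes, had a Benjamini-Hochberg adjusted p below 0.05. The criteria of the study, a cKO mean over 20% away from that of the controls with an unadjusted p below 0.05, called 4.02% of the tested genes, 1.55% as higher and 2.47% as lower in cKO. Higher genes were thus 38.6% of these calls, or 50% with quantile normalization, 51.1% with median-ratio scaling and 13.8% when only protein-coding genes other than *Amelx* and *Ambn* set the scale. Of the mesenchyme factors, 0 of 9 were called by either rule. None of them had an unadjusted p below 0.05 from limma in any of the 15 alternative settings, where the smallest was 0.0763.

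*Msx1* (ENSMUSG00000048450, chr5:37820485-37824583 on GRCm38, minus strand) was at 14.1, 10.97 and 7.31 TPM in control replicates 1, 2 and 3. It was at 9.81, 13.8 and 8.12 TPM in cKO replicates 1, 2 and 3. The 2 groups covered the same range, with a low library numbered 3 in each. The log2 fold change of *Msx1* was -0.01 (SE 0.29), with a 95% interval from -0.70 to 0.67 and an adjusted p of 1.00 from limma. The direction of so small a value was not stable, and it was 0.09 with quantile normalization and 0.06 with median-ratio scaling.

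*Pax9* (ENSMUSG00000001497, chr12:56691767-56712822, plus strand), the partner of *Msx1* in the mesenchyme, was at 1.49, 1.09 and 0.53 TPM in the control replicates. In the cKO replicates it was at 1.03, 0.92 and 0.32 TPM. The cKO mean of 0.757 TPM was 73.0% of the control mean, and control replicate 3 lay below cKO replicates 1 and 2 (exact permutation test, two-sided, p = 0.4, where 0.1 is the lowest value that 3 libraries a group can give). In a fit without the filter on low values, its log2 fold change was -0.21 with a 95% interval from -0.89 to 0.47.

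*Osr2* (ENSMUSG00000022330, chr15:35296098-35303305, plus strand), a zinc finger gene, was at 6.67, 4.92 and 3.36 TPM in the control replicates and at 5.51, 4.78 and 2.74 TPM in the cKO replicates. Replicate 1 was the highest and replicate 3 the lowest library in both groups. The log2 fold change of *Osr2* was -0.16 (SE 0.31), with a 95% interval from -0.90 to 0.57.

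*Barx1* (ENSMUSG00000021381, chr13:48662998-48666507, plus strand) was at 32.0, 20.6 and 19.7 TPM in the control replicates and at 30.6, 37.1 and 23.0 TPM in the cKO replicates. Its cKO mean was 1.25 times the control mean, but control replicate 1 lay above cKO replicates 1 and 3. The log2 fold change of *Barx1* was 0.32 (SE 0.26), with a 95% interval from -0.28 to 0.93 and an adjusted p of 1.00 from limma.

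Of the LIM homeobox pair, *Lhx6* (ENSMUSG00000026890, chr2:36081953-36105408, minus strand) was at 7.15, 5.60 and 3.01 TPM in the control replicates and at 5.53, 5.73 and 4.81 TPM in the cKO replicates. The cKO libraries lay within the range of the controls, and the log2 fold change was 0.08 (SE 0.29, 95% interval from -0.61 to 0.77). *Lhx8* (ENSMUSG00000096225, chr3:154306294-154330659, minus strand) was at 2.44, 3.46 and 1.65 TPM in the control replicates and at 2.52, 4.95 and 1.91 TPM in the cKO replicates. Its highest value was that of cKO replicate 2, and the log2 fold change was 0.19 (SE 0.35, 95% interval from -0.62 to 1.01).

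*Prrx1* (ENSMUSG00000026586, chr1:163245119-163313710, minus strand) was at 7.05, 5.49 and 2.57 TPM in the control replicates and at 4.12, 6.59 and 2.07 TPM in the cKO replicates. *Prrx2* (ENSMUSG00000039476, chr2:30834972-30881251, plus strand) was at 7.88, 2.92 and 3.36 TPM in the control replicates and at 6.21, 9.14 and 2.99 TPM in the cKO replicates. Both were low in cKO replicate 3, and control replicate 2 was above the mean for *Prrx1* and the lowest library for *Prrx2*. The log2 fold changes were -0.21 (SE 0.43, 95% interval from -1.22 to 0.79) for *Prrx1* and 0.31 (SE 0.44, 95% interval from -0.73 to 1.35) for *Prrx2*, the widest intervals of the 9 genes. The ratio of *Prrx1* to *Prrx2* was 0.895, 1.88 and 0.765 in the control replicates and 0.663, 0.721 and 0.692 in the cKO replicates. Every cKO ratio was below every control ratio (two-sided exact permutation test, p = 0.1), with an adjusted p of 0.3 over the 3 paralogue ratios compared by the same exact test. This ratio rests on genes whose transcripts differ widely in length, 6527 bases for *Prrx1* and 1441 bases for *Prrx2*.

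*Twist1* (ENSMUSG00000035799, chr12:33957671-33959829, plus strand) was at 9.20, 4.96 and 5.30 TPM in the control replicates and at 8.88, 9.86 and 6.32 TPM in the cKO replicates. *Twist2* (ENSMUSG00000007805, chr1:91801461-91848028, plus strand) was at 2.67, 1.42 and 1.19 TPM in the control replicates and at 2.58, 2.96 and 1.78 TPM in the cKO replicates. In both genes control replicate 1 stood among the cKO libraries, and the other control libraries were below every cKO library. The log2 fold changes were 0.35 (SE 0.28, 95% interval from -0.32 to 1.01) for *Twist1* and 0.34 (SE 0.30, 95% interval from -0.36 to 1.04) for *Twist2*, with adjusted p of 1.00 for each from limma. The ratio of *Twist1* to *Twist2* stayed between 3.33 and 4.45 in the 6 libraries (exact permutation p = 0.4, adjusted p = 0.6). That of *Lhx6* to *Lhx8* ranged more widely, from 1.16 to 2.93 (exact permutation p = 0.8, adjusted p = 0.8).

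The median log2 fold change of the 9 tested factors was 0.19, against -0.07 over all tested genes, and 3 of the 9 were lower in cKO against 60.3% of all tested genes. This median rested on single libraries, at 0.01 without control replicate 3 or without cKO replicate 2 and 0.41 without cKO replicate 3, while that of all genes lay between -0.18 and 0.02 with 1 library left out. The difference between the group means was smaller than the SD within groups for 8 of the 9 factors. The exception was *Twist2*, at 0.340 against 0.336 on the log2 scale. No factor had groups without overlap, a separation seen for 9.64% of the tested genes. The lower limits of the 95% intervals lay between 0.429 times the control for *Prrx1* and 0.822 times for *Barx1*, and the upper limits between 1.49 times for *Osr2* and 2.56 times for *Prrx2*. Changes within the limits of a gene are not excluded by these libraries.

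**Figure D2:**
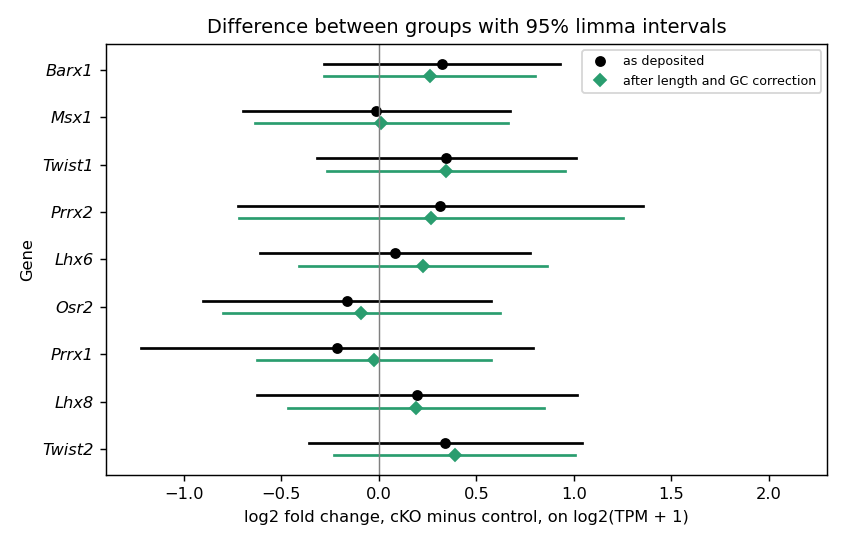
Log2 fold change (cKO minus control, on log2(TPM + 1)) of the 9 tested factors with 95% intervals from limma, from the deposited values (black circles) and after each library was corrected for transcript length and GC content (green diamonds). Every interval includes 0, and *Prrx1* moves from -0.21 to -0.03 with the correction.

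The factors were also compared after each library was corrected for transcript length and GC content. The longest annotated transcripts of the tested factors ran from 1399 bases for *Barx1* to 6527 bases for *Prrx1*, against a median of 3161 bases over all tested genes. The shortest, *Barx1*, *Prrx2* and *Twist1*, with 1399, 1441 and 1628 bases, were at 0.32, 0.31 and 0.35 on the log2 scale before correction. *Msx1*, *Lhx8*, *Twist2* and *Osr2*, with 1935, 2076, 2525 and 2761 bases, were at -0.01, 0.19, 0.34 and -0.16. *Lhx6* and *Prrx1*, the longest, with 3481 and 6527 bases, were at 0.08 and -0.21. A relation between length and fold change among the factors was not tested. After correction, *Prrx1* was at -0.03, *Osr2* at -0.09 and *Msx1* at 0.01, and *Barx1*, *Prrx2* and *Twist1* were at 0.26, 0.27 and 0.34. *Lhx6* was at 0.22, *Lhx8* at 0.19 and *Twist2* at 0.39. The median of the factors was then 0.22, against 0.00 over all genes, and 0 of 9 had an unadjusted p below 0.05 from limma.

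**Figure D3:**
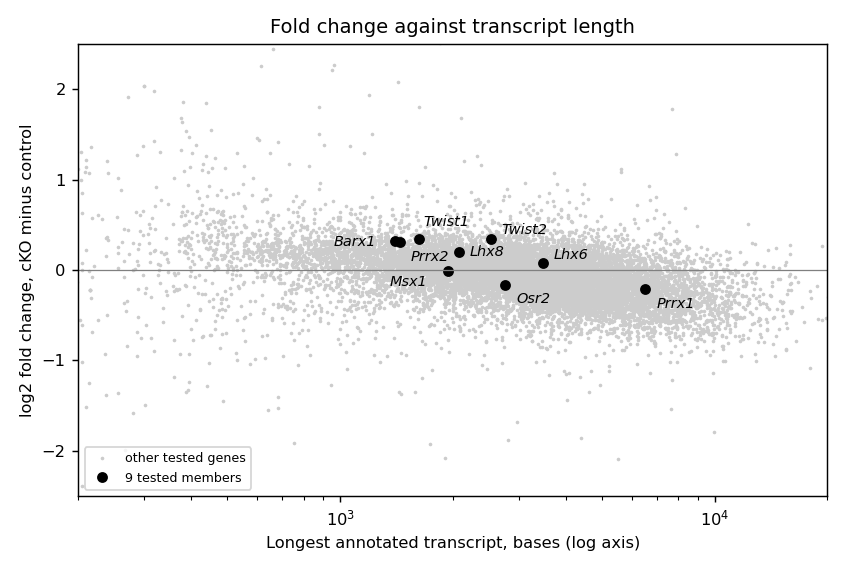
Log2 fold change (cKO minus control) against the length in bases of the longest annotated transcript (log axis), for the 9 tested factors (black, named) and the other tested genes (grey). The axes leave out 295 of 13707 genes. The factors lie within the cloud of all genes, from *Barx1* at 1399 bases and 0.32 to *Prrx1* at 6527 bases and -0.21.

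The factors had their extremes in few libraries. Of the 10, 5 had their highest value in control replicate 1 (*Msx1*, *Pax9*, *Lhx6*, *Prrx1* and *Osr2*) and the other 5 in cKO replicate 2. By comparison 15.0% and 25.1% of all tested genes were highest in these libraries, which were picked out after the values were seen. In 8 of the 10 the lowest value was in a library numbered 3, control replicate 3 for 5 genes and cKO replicate 3 for 3. A library numbered 3 was also the lowest for 48.6% of all tested genes. *Prrx2* and *Twist1* were the exceptions, with control replicate 2 the lowest. That library split the factors, with *Prrx1*, *Lhx8*, *Osr2*, *Lhx6* and *Msx1* above their own means by 0.07 to 0.29 on the log2 scale and *Prrx2*, *Twist1*, *Barx1* and *Twist2* at -0.60, -0.46, -0.35 and -0.32. All 10 were higher in control replicate 1 than in control replicate 3, with a median ratio of 2.11, and all 10 were higher in cKO replicate 2 than in cKO replicate 3, with a median ratio of 1.72. By comparison 69.8% and 69.0% of all tested genes were higher in the same pairs.

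The libraries numbered 3 stood apart from the others in the whole data as well. On the first principal component, which held 43.1% of the variance, control replicate 3 and cKO replicate 3 were at 49.1 and 44.8, and the other 4 libraries were between -53.5 and -2.4. Without both libraries numbered 3, the median log2 fold change of the 9 factors was 0.22, and 0 of the factors met either rule. The 10 factors summed to 90.7, 61.4 and 48.0 TPM in the control replicates and to 76.8, 95.8 and 54.1 TPM in the cKO replicates. The sums of the groups overlapped, and the cKO mean was 1.13 times the control mean. The share taken by the enamel matrix genes *Amelx* and *Ambn* also differed between libraries, from 9.52% of all TPM in cKO replicate 2 to 23.9% in control replicate 3. Rescaled to the TPM total without *Amelx* and *Ambn*, the sum of the factors was 114.5, 77.2 and 63.7 in the control replicates and 96.5, 107 and 69.0 in the cKO replicates, so control replicate 1 rather than cKO replicate 2 was then the highest and the libraries numbered 3 were still the lowest of their groups.

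**Figure D4:**
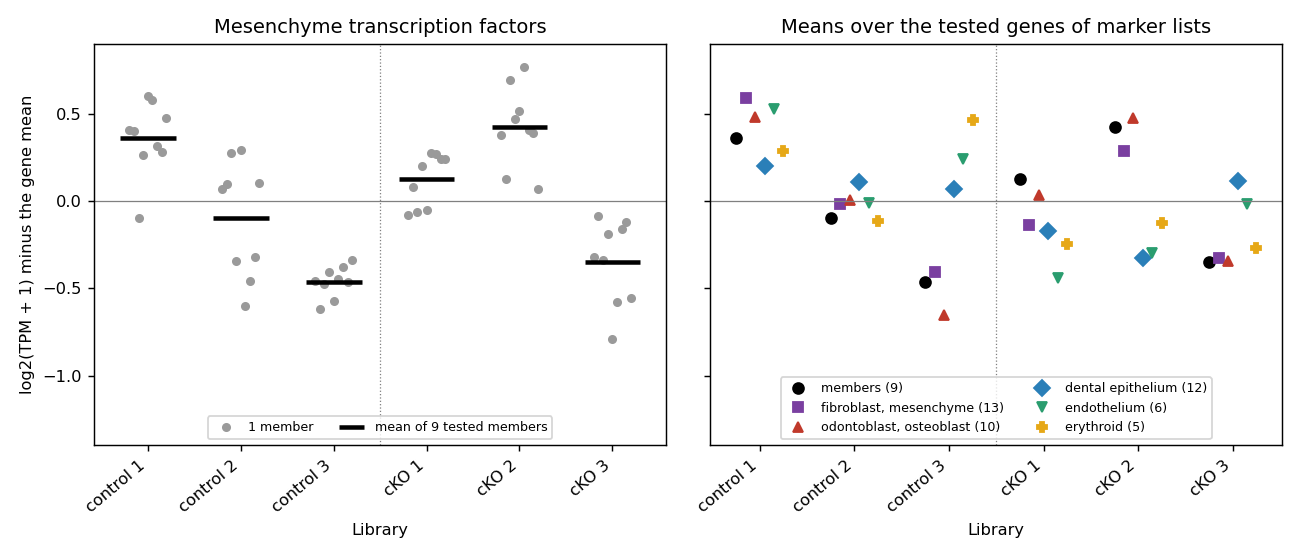
Deviation of log2(TPM + 1) from the mean of each gene over the 6 libraries, for the 9 tested factors (left, grey points, with their mean as a bar) and as means over the tested genes of 6 marker lists (right, number of genes in brackets). The factors are high in control replicate 1 (0.36) and cKO replicate 2 (0.42) and low in control replicate 3 (-0.46) and cKO replicate 3 (-0.35). The fibroblast and the odontoblast lists are so too by this mean. Their sums rescaled without *Amelx* and *Ambn* order the cKO libraries differently, with the fibroblast sum highest in cKO replicate 3.

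The profile of the factors was set beside those of other markers. The mean deviation of the 9 factors from their own means on the log2 scale was 0.36, -0.10 and -0.46 in the control replicates and 0.13, 0.42 and -0.35 in the cKO replicates. For 13 tested fibroblast and general mesenchyme markers, such as *Col1a1*, it was 0.59, -0.02 and -0.41 in the control replicates and -0.14, 0.29 and -0.33 in the cKO replicates. For 10 odontoblast and osteoblast markers, led by *Dspp*, it was 0.48, 0.01 and -0.65 in the control replicates and 0.04, 0.47 and -0.34 in the cKO replicates. By this mean, control replicate 1 and cKO replicate 2 were the highest libraries of their groups for both lists. The libraries numbered 3 were the lowest. Sums rescaled to the TPM total without *Amelx* and *Ambn* kept this order in the control group but not in the cKO group. For the fibroblast list they were 5215, 5113 and 5610 in the cKO replicates, highest in replicate 3. For the odontoblast list they were 2706, 2467 and 2160, highest in replicate 1 and lowest in replicate 3. In mean deviation, the 5 tested signals and matrix genes of the mesenchyme, led by *Sdc1*, did not follow in the cKO. They were at 0.37, 0.13 and -0.005 in the control replicates and -0.28, -0.21 and 0.005 in the cKO replicates. Their highest cKO library was thus replicate 3. The median over all tested genes was 0.07, 0.19 and -0.16 in the control replicates and -0.10, 0.14 and -0.12 in the cKO replicates, also lowest in the libraries numbered 3 and also high in cKO replicate 2, but highest in control replicate 2. The 12 dental epithelium markers were at 0.20, 0.11 and 0.07 in the control replicates and -0.17, -0.33 and 0.12 in the cKO replicates. Their order differed from that of the factors in the cKO group, where cKO replicate 2 was the lowest, while in the control group replicate 1 was the highest and replicate 3 the lowest, as for the factors. Their most abundant gene, *Amelx*, took 17.2%, 16.5% and 20.6% of all TPM in the control replicates and 16.6%, 8.65% and 18.1% in the cKO replicates.

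Genes with a pattern like that of the factors were sought by the root mean square difference between each gene and the mean of the 9 factors over the 6 libraries, both centred on their own mean on the log2 scale. Among the 9714 genes whose mean reached 5 TPM, the 5 closest were *B3gnt9*, *Ccdc62*, the processed pseudogene *Gm10182*, *Cdkn2c* and *Foxf1*, with differences of 0.055, 0.060, 0.061, 0.073 and 0.077 against a median of 0.385. *Foxf1*, a forkhead factor of mesenchyme, was at 13.2, 8.93 and 6.33 TPM in the control replicates and 12.04, 13.2 and 7.19 TPM in the cKO replicates. *Runx2*, which is needed for the differentiation of odontoblasts and osteoblasts, ranked 8, and the bone matrix gene *Ibsp* ranked 17. They belong to a list of 10 odontoblast and osteoblast markers of which *Sp7* and *Dmp1* ranked 114 and 133, and the other 6, *Dspp* among them, ranked between 4848 and 9512, so most of that list was not close. None of the 13 fibroblast and general mesenchyme markers was closer than *Dcn*, which ranked 920, and *Thy1* ranked 9221. *Epcam*, an epithelial marker, ranked 481 and was closer than each of them, so closeness by this measure was not confined to mesenchymal genes.

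Of 29 further transcription factors of jaw and tooth mesenchyme, some of which are also active in the epithelium, 20 were tested. None had an adjusted p below 0.05 from limma, and 3 met the criteria of the study, all lower in cKO, against 2.47% of all tested genes. These were *Zeb1*, a repressor of epithelial genes, and *Gli2* and *Nfic*, a Hedgehog effector and a factor of root formation, with log2 fold changes of -0.85, -0.57 and -0.60. Their groups did not overlap, a separation seen for 9.64% of all tested genes. After correction for length and GC content they were at -0.67, -0.26 and -0.30, and none of the 3 had an unadjusted p below 0.05 from limma. The median of the 20 genes was 0.04, and the most abundant, *Dlx2*, had a mean of 109 TPM. *Alx1*, *Alx4*, *Hand2*, *Meox2*, *Tbx18*, *Meis2*, *Osr1* and *Tcf21* were below 1 TPM in every library, and *Tcf21* was listed at 0 in all 6.

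Among 12 genes for partners and cofactors of the factors, none had an adjusted p below 0.05 from limma. The criteria of the study were met by 1, against 4.02% of all tested genes. It was *Id1*, which encodes an inhibitor of helix-loop-helix proteins and was the most abundant of the list, at 192, 221 and 147 TPM in the control replicates and 258, 357 and 218 TPM in the cKO replicates. Its groups overlapped slightly, with control replicate 2 above cKO replicate 3. *Id1* no longer met the criteria after correction for length and GC content (0.51, unadjusted p of 0.0595 from limma) or without the filter on low values (unadjusted p of 0.0547 from limma). *Id2*, a gene of the same family, met them with that correction (0.51, unadjusted p of 0.0428 from limma) and not before it (0.59, unadjusted p of 0.141 from limma). *Tcf3*, *Tcf12* and *Tcf4*, the genes of the E proteins with which Twist factors pair, had log2 fold changes of -0.18, -0.42 and -0.62 and did not meet them. The median over the 12 genes was -0.13.

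Of 8 signals and matrix genes linked to *Msx1* and *Pax9* in the mesenchyme, 5 were tested and 2 met the criteria. Both were lower in cKO, against 2.47% of all tested genes called lower. None of the 5 had an adjusted p below 0.05 from limma. *Tnc*, the matrix gene of tenascin C, was at 53.7, 32.0 and 40.1 TPM in the control replicates and 24.7, 24.0 and 31.6 TPM in the cKO replicates, without overlap. *Wnt5a*, a Wnt ligand, was at 36.1, 36.3 and 27.8 TPM in the control replicates and 20.6, 19.8 and 28.6 TPM in the cKO replicates, with overlap. After correction for length and GC content *Tnc* was at -0.30 and *Wnt5a* at -0.29 on the log2 scale, against -0.61 and -0.53 before it, and neither met the criteria (unadjusted p of 0.275 and 0.273 from limma). *Bmp4*, the main signal maintained by *Msx1* and *Pax9*, was at 75.4 ± 10.5 TPM in the control (SD, n = 3) and 64.1 ± 4.35 TPM among cKO libraries (SD, n = 3), a log2 fold change of -0.22 (SE 0.16). The median of the 5 genes was -0.35. *Sdc1*, for syndecan 1, was the most abundant of the list with a mean of 153 TPM and is also known from epithelium. *Fgf3* and *Fgf10*, growth factor genes of the early dental papilla, were at or below 0.60 and 0.22 TPM in every library, and *Inhba* was between 0.26 and 1.99 TPM.

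Among the fibroblast and general mesenchyme markers, 0 of 13 met the criteria, and their median log2 fold change was -0.11. Of the 10 odontoblast and osteoblast markers, with a median of 0.10, none had an adjusted p below 0.05 from limma. The criteria were met by 1, against 1.55% of all tested genes called higher. This was *Bglap*, the osteocalcin gene, at 618.1, 408.8 and 392.2 TPM in the control replicates and 1089, 686 and 738 TPM in the cKO replicates. Every cKO library was above every control library, while 9.64% of all tested genes had groups without overlap. The log2 fold change of *Bglap* was 0.82 (SE 0.25), and 0.70 after correction for length and GC content. The value is uncertain because near-identical copies of *Bglap* can share its reads. *Sp7*, *Dmp1* and *Dspp*, further genes of mineralizing cells, had log2 fold changes of 0.26, 0.09 and -0.27 and overlapping groups.

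Other cell types were measured beside the mesenchyme, and some of their markers met the criteria of the study. All 6 endothelial markers were lower in cKO, with a median of -0.55, and *Cdh5*, *Flt1* and *Tek* met the criteria of the study. Over all tested genes 60.3% were lower in cKO, and 2.47% met the criteria as lower. The summed level of the endothelial markers was 102, 64.7 and 86.4 TPM in the control replicates and 50.1, 55.7 and 70.8 TPM in the cKO replicates, and the most abundant was *Pecam1*. After correction for length and GC content, none of the 3 met the criteria, with log2 fold changes of -0.61 for *Cdh5*, -0.35 for *Flt1* and -0.40 for *Tek* and unadjusted p of 0.0624, 0.152 and 0.0617 from limma. *Flt1* and *Tek* also missed them without the filter on low values. The 5 erythroid genes, led by *Hbb-bs*, summed to 1761, 1325 and 1978 TPM in the control replicates and 1228, 1282 and 1160 TPM in the cKO replicates, without overlap, and *Hbb-bs* met the criteria in the uncorrected fit. With the length and GC correction *Hba-a2* and *Hbb-bt* met them too, at -0.64 and -0.51 on the log2 scale beside -0.56 for *Hbb-bs*. Globin genes have near-identical copies that can share reads, so their single values are uncertain. No endothelial or erythroid marker had an adjusted p below 0.05 from limma in the uncorrected fit. The difference between these lists and the mesenchyme factors was not itself tested.

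Among 4 tested myeloid markers, led by *Tyrobp*, 3 tested markers of differentiated oral epithelium, led by *Krt10*, 4 tested markers of glia and nerve, led by *Tubb3*, and 2 tested cartilage markers, led by *Sox9*, 0 met the criteria. The myeloid sum was between 23.5 and 37.1 TPM and the oral epithelium sum between 20.8 and 25.2 TPM. The sum for glia and nerve was between 91.4 and 139 TPM, nearly all of it *Tubb3*, and that for cartilage between 15.9 and 26.1 TPM, nearly all of it *Sox9*, with *Matn1* listed at 0 in every library. All 6 skeletal muscle genes were below 1 TPM in every library, the most abundant being *Des*, and none was tested. The part of any of these cell types in the values of the mesenchyme factors was not tested.

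Genes annotated over the same stretch as a factor were few and low. They were *Slc25a21* and *Gm15524* at *Pax9*, *Gm29100* and *Gm29101* at *Twist2*, *Gm20471*, *Gm37644* and *Gm26523* at *Prrx1*, and *Gm27953* at *Lhx6*. Those with a value were at or below 0.18 TPM in every library, although reads from opposite strands cannot be told apart where the library kit does not mark strand.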

How the data were processed

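Per the methods of the study, reads were trimmed (SeqPrep, Sickle) and mapped with HISAT2, and RSEM gave the abundance of each gene. The submitters' processing notes name HISAT2 and StringTie. Genome build, annotation, versions and strandedness are not given in the sources used here. The deposited values are TPM, 1 column per library (the methods name FPKM, but each column sums to nearly the fixed total of TPM). Libraries were grouped and numbered by their titles, and columns were matched to them by the description in the labels. The numbers differ, since replicates 2 and 3 of each group are the deposited columns that end in 3 and 4.

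From these, log2(TPM + 1) was fitted with limma 3.58.1 (R 4.3.3, lmFit, eBayes with trend) for the 13719 genes whose mean reached 1 TPM, without a block, and p-values were Benjamini-Hochberg adjusted over all of them. Positions, transcript lengths and GC content came from GENCODE M21 (GRCm38), which held 99.5% of the gene identifiers. The correction for length and GC content used natural splines of 4 degrees of freedom each and covered 13707 genes. The fit was tested on simulated data.

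The members and gene lists were chosen with earlier results of these data known. Named are all members, the most abundant gene of each list, up to 5 genes per list that met the study's criteria, the tissue checks, *Wnt10a* and the 5 genes of most similar pattern. *Amelx* was also named as the most abundant epithelial marker and for its share of the TPM. *Ambn* (for the same share), *Tcf3*, *Tcf4*, *Tcf12*, *Bmp4*, *Fgf3*, *Fgf10*, *Inhba*, *Runx2*, *Ibsp*, *Dcn*, *Thy1*, *Id2*, *Hba-a2*, *Hbb-bt*, *Sp7*, *Dmp1* and the genes at or near 0 were added after their values were seen, as were the paralogue ratios. Some listed genes are not reported here by name. The number of libraries limits the precision, and depth is unknown. Alternatives were another pseudocount, no filter, 3 other scalings, the length and GC correction, the replicate block, the 2 together, leaving out each library and, chosen after seeing the data, leaving out both libraries numbered 3.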

Additional observations from a re-analysis of the deposited data

How the results depend on the processing

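None of the tested mesenchyme factors met the study's criteria under any of the 15 alternatives, and the smallest adjusted p among them was 0.584 from limma. *Barx1*, *Prrx2*, *Twist1* and *Twist2* kept their direction in all 15, but with 1 library left out ranged from 0.17 to 0.54, 0.0079 to 0.68, 0.20 to 0.59 and 0.19 to 0.56. The lowest value of *Prrx2* was that without cKO replicate 2, and all 4 were highest without control replicate 1. The log2 fold change of *Msx1*, -0.01, was 0.094 under quantile normalization, 0.0571 under median-ratio scaling and 0.0107 once length and GC content were corrected for, whether or not a block was fitted. Leaving out each library in turn gave -0.25 to 0.19 for *Msx1*, -0.55 to 0.13 for *Prrx1*, -0.37 to 0.0738 for *Osr2*, -0.21 to 0.30 for *Lhx6* and -0.10 to 0.41 for *Lhx8*. *Prrx1* and *Osr2* were positive without control replicate 1 or cKO replicate 3, *Lhx6* was negative without control replicate 3 and *Lhx8* without cKO replicate 2. Without both libraries numbered 3, *Lhx6* was at -0.15.

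The number of members lower in cKO, 3, was 0 to 4 with 1 library left out (0 without control replicate 1) and 5 of the 10 then tested without both libraries numbered 3. The 2 genes with an adjusted p below 0.05 became 4 with a pseudocount of 0.1, quantile normalization, median-ratio scaling or the replicate block, 1 without the filter or with the block and the correction together, 0 when only protein-coding genes other than *Amelx* and *Ambn* set the scale (755 had an unadjusted p below 0.05 in limma), 26 without both libraries numbered 3, and 2 to 9 with 1 library left out. The 552 genes under the study's criteria became 940 without the filter, 1315 with the block, 960 with the block and the correction, 1292 without both libraries numbered 3, and 195 to 1152 with 1 library left out. The cause of these changes was not tested.

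The replicate numbers are shared between the groups, and the methods of the study speak of pairs of replicates without saying what a pair shares. Same-numbered libraries had correlations of -0.08, 0.29 and 0.40 between their deviations from the group means. Libraries of different number had correlations between -0.40 and 0.18. As the same-numbered values were not all above 0.1, the libraries were treated as unpaired. This rule does not show that no pairs exist, so results with the replicate block are given too. With the replicate block, 0 of 9 factors met the criteria, and the smallest of their unadjusted p was 0.148 from limma, for *Barx1*.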
